A study of Mus musculus with 12 samples.

Results

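The proteasome genes of mouse white adipose tissue were the genes whose symbols begin with Psma, Psmb, Psmc, Psmd, Psme, Psmf or Psmg followed by a number. Of 49 such symbols on probe sets that name a single gene, 47 had a probe set bright enough to be tested, out of 12627 genes tested in all. They comprised 7 alpha and 7 beta genes of the 20S core, 6 ATPase and 11 non-ATPase genes of the 19S cap, 4 immunoproteasome genes, 3 further activators or regulators and 7 assembly chaperones. The other 2, Psmc3ip and Psme3ip1, match by name only and encode no proteasome subunit. Psma8 and Psmb11, core subunits known from testis and thymus, did not reach 100 on enough arrays, with highest scaled values of 76.3 and 70.6. Psme2, the partner of Psme1, lies on a probe set that also names Psme2b and was not analysed here.

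The proteasome degrades proteins tagged with ubiquitin. Its core is a stack of alpha and beta rings whose beta subunits Psmb5, Psmb6 and Psmb7 cut the chain, and its cap recognises, unfolds and feeds in the substrate. Interferons replace the cutting subunits by Psmb8, Psmb9 and Psmb10, which makes the immunoproteasome, and the genes of core and cap are known to rise together through the transcription factor NFE2L1 when proteasome activity is short.

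The mice had been fed CLA or LA, the LA groups being labelled as the control, and the labels spell out neither diet. CLA usually stands for conjugated linoleic acid, and LA for linoleic acid. The 6 groups were CLA at 4 h, LA at 4 h, CLA at 12 h, LA at 12 h, CLA at 24 h and LA at 24 h, with 2 Affymetrix arrays each, and the labels do not say from when the hours ran. Each array carried RNA from the RP fat tissue of 5 pooled mice, 60 mice in all, and the labels give no strain, sex, age or dose. Pooling hides the spread between single mice, so the errors here describe pools.

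Intensities were scaled so that each array had a trimmed mean of 500, and differences are on the log2 scale of scaled intensity plus 16. The deposited mean intensity ran from 91.5 to 125.1 between arrays, and 44.7% to 49.8% of probe sets reached a scaled value of 100. CLA 4 h replicate 1 stood apart in its 18S rRNA probe set, at 27.6 against 709 to 1442 on the other 11 arrays. The 3′ over 5′ ratio of Actb, a measure of RNA integrity, was 3.80 to 6.41 at 12 h and 2.35 to 4.13 on the other arrays. Fat cell markers were strong on every array: Adipoq, the adiponectin gene, ran from 35606 to 76433. Of the 47 proteasome genes, 37 had a mean scaled intensity of at least 1000, and the highest deposited signal of any of them was 29.1% of the table's maximum.

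No proteasome gene passed the test between diets at 4 h. Most of them, the genes of cap and core above all, had higher values in CLA pools at 12 and 24 h, and a part of these passed. At 4 h, 0 of 47 passed an adjusted p of 0.05 in limma and 0 had an unadjusted p under 0.05. Among all 12627 genes, 0.0554% passed and 867 had an unadjusted p under 0.05. At 12 h, 6 of 47 (12.8%) were higher in CLA and 0 lower, against 2.08% higher and 2.38% lower among all genes. At 24 h, 12 of 47 (25.5%) were higher and 2 lower (4.26%), against 10.6% higher and 10.9% lower among all genes. Averaged over the 3 times, 16 of 47 (34%) were higher and 1 lower, against 7.37% higher and 7.74% lower among all genes.

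The median difference of the 47 genes was 0.01 at 4 h, 0.56 at 12 h and 0.43 at 24 h, beside 0.02, -0.02 and 0.01 for all genes tested. Both CLA arrays lay above both LA arrays for 37 of 47 genes at 12 h (78.7%) and 31 of 47 at 24 h (66%), where 24.2% and 33% of all genes did so. Both lay below for 6 genes at 24 h, where 31.7% of all genes did so. In bulk tissue, more RNA per cell and more cells of a type that is rich in it cannot be told apart.

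The counts depended on single arrays. At 12 h the count was 0 without either CLA 12 h array or either LA 12 h array, 2 without either LA 4 h or either CLA 24 h array, and 3 without LA 24 h replicate 1. It was 13 without either CLA 4 h array, the array with low 18S included. At 24 h the 14 genes became 1 without CLA 24 h replicate 2, 4 without replicate 1 and 3 without either LA 24 h array, and 19 without CLA 4 h replicate 1. For the average, 17 genes became 7 without CLA 24 h replicate 2, 10 without replicate 1, 10 and 11 without CLA 12 h replicates 1 and 2, 11 without LA 4 h replicate 2, and 22 without CLA 4 h replicate 1.

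**Figure D1:**
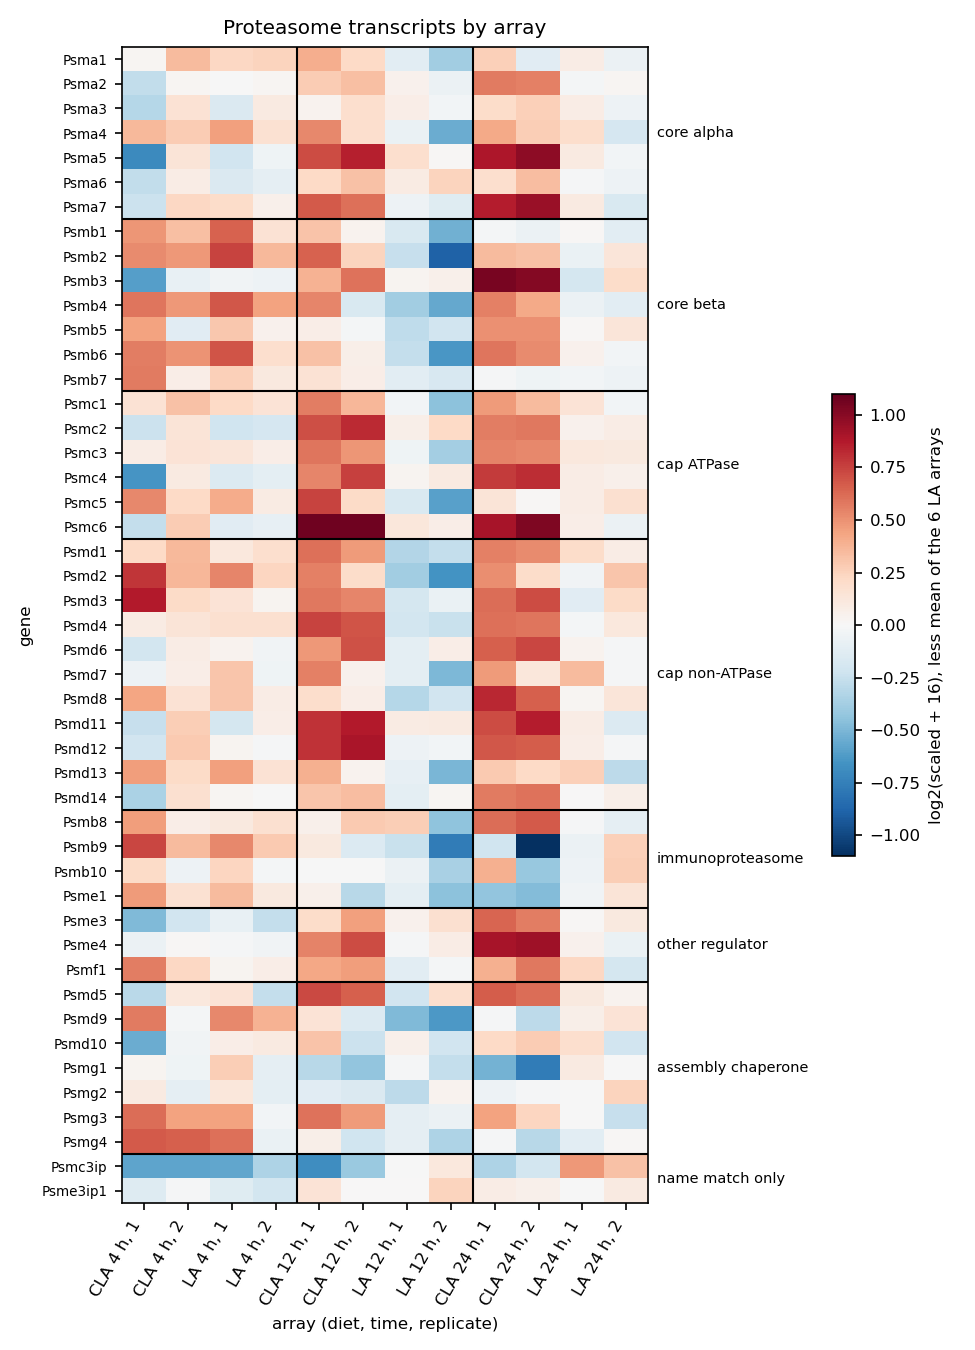
Each row is a proteasome gene, each column an array, and the colour is log2(scaled intensity + 16) less the mean of the 6 LA arrays for that gene. Most rows of cap and core are red in the CLA columns at 12 and 24 h, where the median of all 47 genes was 0.40, 0.24, 0.50 and 0.42, while the immunoproteasome and assembly rows are mixed.

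**Figure D2:**
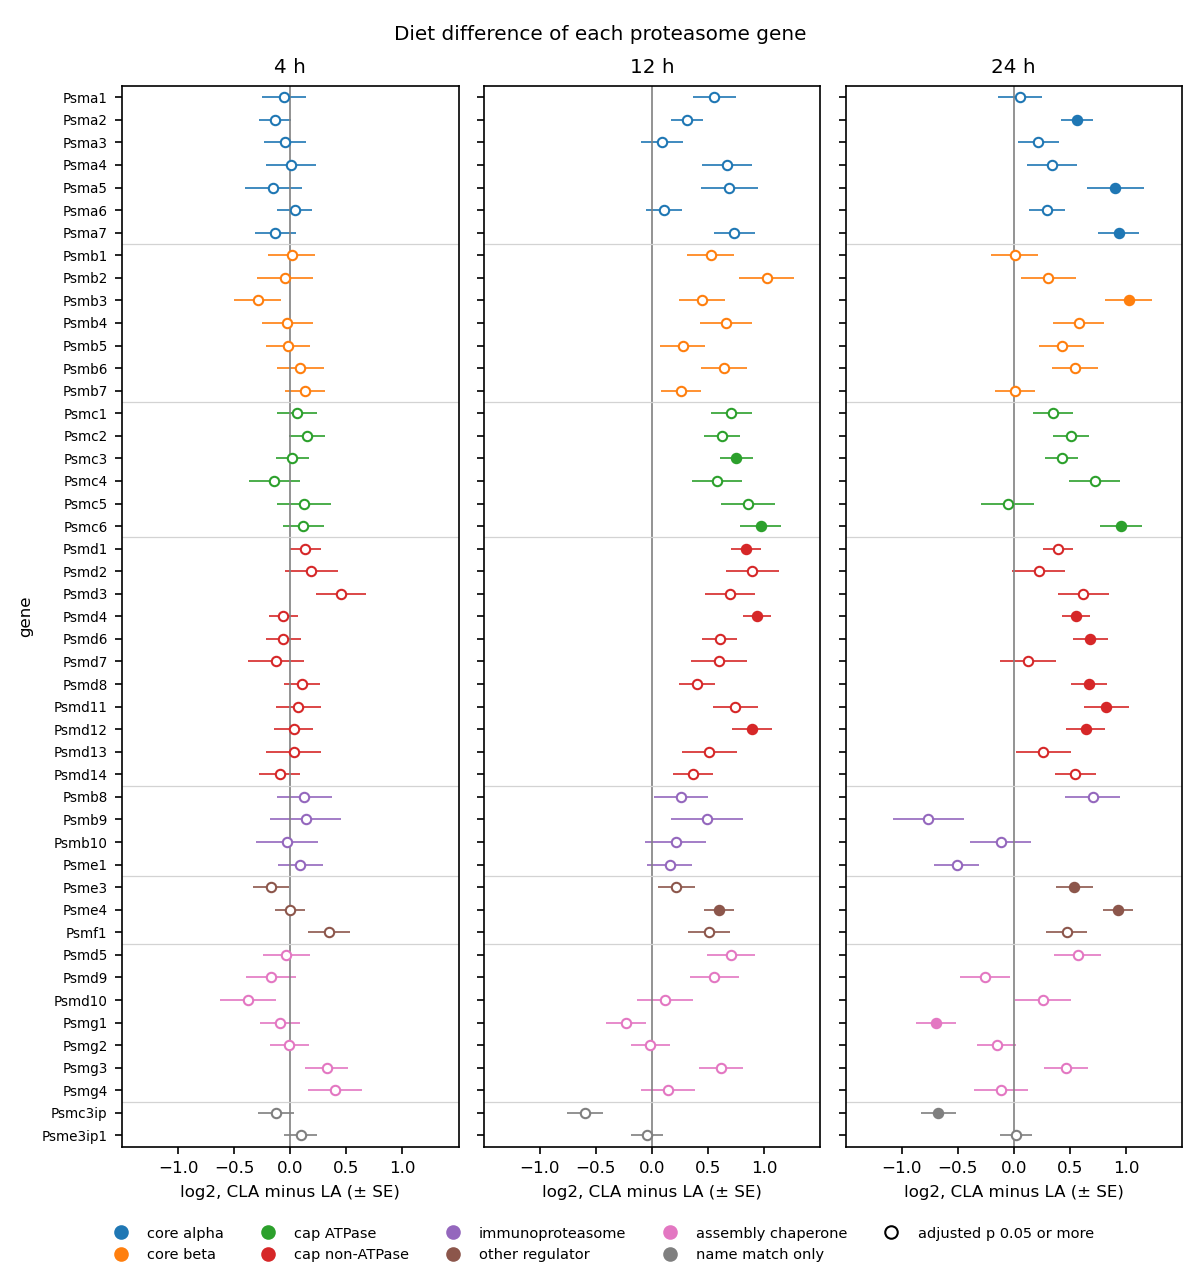
Each point is the fitted log2 difference, CLA minus LA, of 1 proteasome gene at 4, 12 or 24 h, with bars of 1 standard error (2 arrays per group); filled points passed an adjusted p of 0.05. The 4 h points centre on 0, with none filled; 6 points are filled at 12 h and 14 at 24 h, of which 12 lie right of 0.

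Every cap gene that matches the symbol rule was on the CLA side at 12 h. The cap subunit Sem1 lies outside that rule and is counted below with the associated factors. It went the other way at 12 h, with 8948 and 8905 in CLA pools, against 9974 and 9503 in LA pools. All 17 cap genes had a positive difference at 12 h, from 0.36 to 0.97 with a median of 0.71. In all 17 both CLA arrays lay above both LA arrays, as in 24.2% of all genes. Of these, 5 passed, where 2.08% of all genes were higher: Psmc3, Psmc6, Psmd1, Psmd4 and Psmd12. At 24 h the median was 0.55 and 16 of 17 were positive. Then 6 passed, where 10.6% of all genes were higher: Psmc6, Psmd4, Psmd6, Psmd8, Psmd11 and Psmd12. Averaged over times, 11 of 17 passed, all higher in CLA, as were 7.37% of all genes.

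Psmc6, an ATPase of the ring at the base of the cap that pulls the substrate into the core, read 4895 and 7108 in CLA pools, against 5374 and 5505 in LA pools at 4 h. These groups overlapped (log2 0.12 ± 0.18 (SE), adjusted p = 0.953). At 12 h it read 12338 and 12299.8 in CLA pools, against 6403 and 6169 in LA pools, a 1.96-fold difference without overlap (log2 0.97 ± 0.18 (SE), adjusted p = 0.0277), a call lost in 11 of 22 alternative settings. At 24 h it read 11003 and 11948 in CLA pools, against 6184 and 5623 in LA pools. The CLA pools were again far above the LA pools (log2 0.96 ± 0.18 (SE), adjusted p = 0.00912).

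Psmc4, another base ATPase, read 9528 and 9809.6 in CLA pools, against 5918 and 5792 in LA pools at 24 h. The groups did not overlap, and the difference missed the threshold (log2 0.72 ± 0.23 (SE), adjusted p = 0.0556). Psmc5, a base ATPase too, had the smallest ATPase difference at 24 h, with 3458 and 3171 in CLA pools, against 3330.5 and 3552 in LA pools, which overlapped (log2 -0.05 ± 0.24 (SE), adjusted p = 0.897). At 12 h Psmc5 had read 5266 and 3626 in CLA pools, against 2799.6 and 2068 in LA pools, with no overlap (log2 0.86 ± 0.24 (SE), adjusted p = 0.0939). Psmc3 passed at 12 h at 0.75 (adjusted p = 0.0311), and Psmc1 and Psmc2 passed in the average only, at 0.37 (adjusted p = 0.0468) and 0.43 (adjusted p = 0.0177).

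Among the non-ATPase subunits, Psmd11, a scaffold subunit of the lid, read 19884 and 21914 in CLA pools, against 12773 and 10882 in LA pools at 24 h. Both CLA pools were higher (log2 0.82 ± 0.20 (SE), adjusted p = 0.0233), as they were at 12 h with 20949.9 and 22170.3 in CLA pools, against 12862 and 12922 in LA pools, where the difference missed the threshold (log2 0.74 ± 0.20 (SE), adjusted p = 0.0875). Psmd6, also of the lid, read 13766 and 14509.5 in CLA pools, against 8942 and 8651 in LA pools at 24 h, without overlap (log2 0.68 ± 0.16 (SE), adjusted p = 0.0186). Psmd7, the lid partner of the deubiquitinase Psmd14, had the smallest difference, with 2673 and 2103 in CLA pools, against 2460.1 and 1919 in LA pools at 24 h, and its groups overlapped (log2 0.13 ± 0.25 (SE), adjusted p = 0.764).

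Psmd4, the cap's ubiquitin receptor, had the smallest adjusted p of the proteasome genes at 12 h, at 0.94 (adjusted p = 0.0086). The lid subunit Psmd12 was higher at both times, by 0.89 at 12 h and 0.64 at 24 h. The base scaffold subunit Psmd1 passed at 12 h at 0.83 (adjusted p = 0.0166), and the lid subunit Psmd8 passed at 24 h at 0.67 (adjusted p = 0.0219). Psmd3 passed in the average alone, at 0.59 (adjusted p = 0.0198).

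The genes of the 20S core had positive differences too, and fewer of them passed at 12 h. All 14 core genes were positive at 12 h, from 0.09 to 1.02 with a median of 0.54, and 0 passed on the probe sets used. Of the 14, 8 had an unadjusted p under 0.05 in limma, beside 2333 of all 12627 genes. The authors' deposited table called 12 of the 14 higher, and 6.99% of all genes. At 24 h all 14 were positive again, with a median of 0.38. Of them 4 passed, where 10.6% of all genes were higher: Psma2, Psma5, Psma7 and Psmb3. The difference between cap and core was not tested.

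Psma7, a subunit of the alpha ring that gates the core, read 9537 and 10110.3 in CLA pools, against 5610.0 and 4675 in LA pools at 24 h. The CLA pools stood far above the LA pools, a 1.92-fold difference (log2 0.94 ± 0.18 (SE), adjusted p = 0.00975). Psma5, of the same ring, read 14475 and 15428 in CLA pools, against 8332 and 7631 in LA pools at 24 h, also apart (log2 0.90 ± 0.25 (SE), adjusted p = 0.0373), a call lost in 13 of 22 alternative settings. At 4 h Psma5 had its lowest value of all in CLA replicate 1, with 4795 and 8591 in CLA pools, against 6746 and 7539.5 in LA pools (log2 -0.15 ± 0.25 (SE), adjusted p = 0.956). Psma1 had the smallest alpha difference at 24 h, with 13099.5 and 10009 in CLA pools, against 11582 and 10468 in LA pools, which overlapped (log2 0.06 ± 0.19 (SE), adjusted p = 0.868). Psma2 passed at 24 h at 0.56 (adjusted p = 0.0268).

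Psmb3, a beta subunit without cutting activity, read 16975 and 16572 in CLA pools, against 7202 and 9439 in LA pools at 24 h. It had the largest 24 h difference of the 47 genes, 2.03-fold (log2 1.02 ± 0.21 (SE), adjusted p = 0.0115), and its groups did not overlap. Psmb4, likewise without cutting activity, read 9219 and 8369 in CLA pools, against 5980.4 and 5769 in LA pools at 24 h, apart but short of the threshold (log2 0.58 ± 0.23 (SE), adjusted p = 0.112). Psmb1 showed the smallest beta difference, with 5757 and 5598 in CLA pools, against 5907 and 5382 in LA pools, and its groups overlapped (log2 0.01 ± 0.21 (SE), adjusted p = 0.981).

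**Figure D3:**
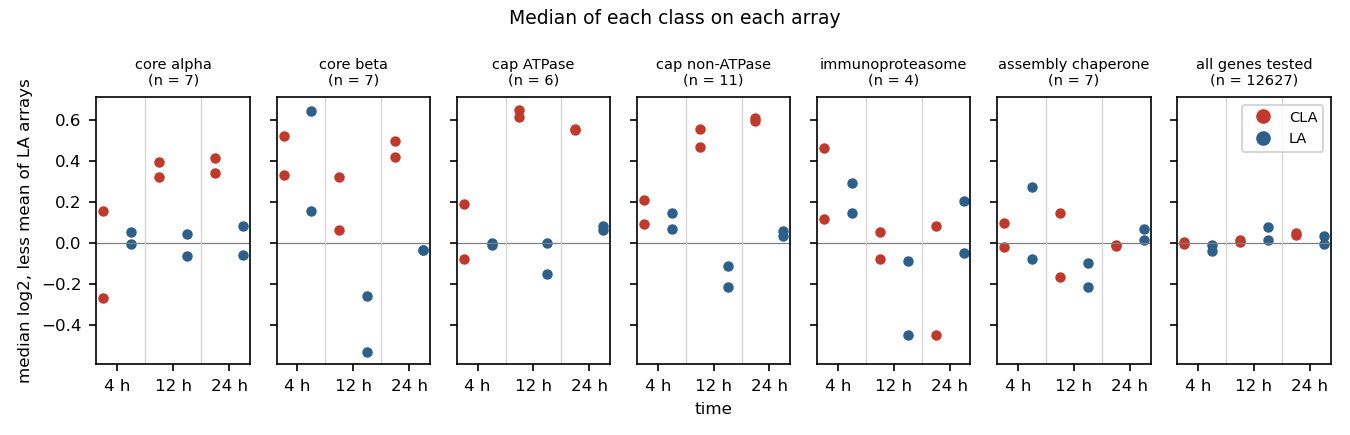
Each point is the median, over the genes of a class on 1 array, of log2(scaled intensity + 16) less the gene's LA mean; CLA points stand left of LA points at each time. Both cap classes lie between 0.47 and 0.65 on the CLA arrays at 12 and 24 h, the immunoproteasome is spread between -0.45 and 0.46, and all genes stay within 0.08 of 0.

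The beta genes had low values in the LA pools of 12 h. Their median per array at 4 h was 0.52 and 0.33 in CLA pools, against 0.65 and 0.15 in LA pools, and at 12 h it was 0.32 and 0.07 in CLA pools, against -0.26 and -0.53 in LA pools. Both LA 12 h pools were thus the lowest 2 arrays for this class, and the 12 h diet difference is taken against them. For all 47 genes the median difference of LA at 12 h against 4 h was -0.23, beside 0.08 for all genes. Of the 47, 0 passed, where 0.00792% of all genes did, and 17 had an unadjusted p under 0.05, beside 2166 of all 12627. For LA at 24 h against 12 h, 0 of 47 passed, where 0.0158% of all genes did. An unadjusted p under 0.05 was found for 4 of them, beside 1287 of all 12627.

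The cutting subunits of the core stood higher in CLA pools at 12 h, short of the threshold. Psmb5, which cuts after hydrophobic residues, read 7428 and 5005 in CLA pools, against 6729 and 5669.9 in LA pools at 4 h. It read 5744 and 5403 in CLA pools, against 4497 and 4716 in LA pools at 12 h. Its values at 24 h were 7748 and 7767 in CLA pools, against 5524 and 6015 in LA pools. The groups overlapped at 4 h and lay apart at 12 and 24 h, where the 2 CLA pools of 24 h were nearly equal. The log2 differences were -0.02 at 4 h, 0.27 at 12 h and 0.43 at 24 h, the last with an adjusted p of 0.167.

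Psmb6, which cuts after acidic residues, read 6223 and 5916 in CLA pools, against 6797 and 4792 in LA pools at 4 h. Its values at 12 h were 5257 and 4399.8 in CLA pools, against 3513 and 2693 in LA pools. At 24 h the values were 6343 and 6048 in CLA pools, against 4358 and 4116 in LA pools. The groups overlapped at 4 h and lay apart at 12 h (log2 0.64) and at 24 h (log2 0.55). Psmb6 passed only in the average, at 0.43 (adjusted p = 0.0497), a call lost in 15 of 20 alternative settings. Psmb7, which cuts after basic residues, read 16471 and 11638 in CLA pools, against 13320.4 and 11967 in LA pools at 4 h. At 12 h it read 12385 and 11632 in CLA pools, against 10242 and 9821 in LA pools, apart but short of the threshold (log2 0.26 ± 0.18 (SE), adjusted p = 0.516). At 24 h Psmb7 read 10985 and 10721 in CLA pools, against 10847 and 10689 in LA pools, with overlap (log2 0.01 ± 0.18 (SE), adjusted p = 0.974).

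Of the 4 immunoproteasome genes, 0 passed in limma at 4, 12 or 24 h or in the average. The number with an unadjusted p under 0.05 was 0 at 4 h, 0 at 12 h, 3 at 24 h and 1 in the average. Among all 12627 genes it was 867, 2333, 4416 and 3764. Of the 3 at 24 h, 1 was positive and 2 were negative, and the authors' deposited table called Psmb8 higher and Psme1 lower. Their median difference was 0.23 at 12 h and -0.31 at 24 h.

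Psmb8, the counterpart of Psmb5, read 732 and 556 in CLA pools, against 569 and 600.2 in LA pools at 4 h. Its values at 12 h were 548 and 649 in CLA pools, against 642 and 384 in LA pools, and the groups overlapped at both times. Its values at 24 h were 818 and 854 in CLA pools, against 522 and 493 in LA pools. Both CLA pools were above the LA pools (log2 0.70 ± 0.24 (SE), adjusted p = 0.0771), and the difference passed without either LA 12 h array.

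Psmb9, the counterpart of Psmb6, read 741 and 562 in CLA pools, against 637 and 538 in LA pools at 4 h, with overlap. At 12 h it read 474 and 393 in CLA pools, against 366 and 250.2 in LA pools, where the CLA pools were above the LA pools (log2 0.49 ± 0.32 (SE), adjusted p = 0.485). At 24 h the order was the other way, with 373 and 196 in CLA pools, against 419 and 528 in LA pools. Replicate 2 of CLA at 24 h was the lowest of all 12 arrays (log2 -0.76 ± 0.32 (SE), adjusted p = 0.128). Without CLA 24 h replicate 1 the 24 h difference passed, at -1.20, and without replicate 2 it was -0.32 (adjusted p = 0.566).

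Psmb10, the counterpart of Psmb7, read 930.2 and 769.9 in CLA pools, against 948 and 787 in LA pools at 4 h. It read 801 and 799.9 in CLA pools, against 763 and 623 in LA pools at 12 h, apart by a small margin. At 24 h it read 1057 and 595 in CLA pools, against 769 and 968 in LA pools, and the CLA pools spanned both LA pools (log2 -0.12 ± 0.27 (SE), adjusted p = 0.798). Psme1, a subunit of the interferon-induced 11S activator, read 4999.7 and 4053 in CLA pools, against 4588 and 3902 in LA pools at 4 h. At 12 h it read 3757 and 2925 in CLA pools, against 3352 and 2636 in LA pools, and the groups overlapped at both times. At 24 h it read 2673 and 2588 in CLA pools, against 3514 and 3990.0 in LA pools. Both CLA pools were then below the LA pools (log2 -0.51 ± 0.20 (SE), adjusted p = 0.112).

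Set as log2 ratios within each array and centred on the LA mean, Psmb9 over Psmb6 was -0.81 and -1.62 in CLA pools, against -0.11 and 0.29 in LA pools at 24 h. The CLA pools lay below both LA pools, with a mean difference of -1.31. Psmb8 over Psmb5 was 0.12 and 0.17 in CLA pools, against -0.03 and -0.23 in LA pools, a difference of 0.28, and Psmb10 over Psmb7 was 0.41 and -0.37 in CLA pools, against -0.03 and 0.32 in LA pools, a difference of -0.13. At 12 h the 3 differences were -0.02 for Psmb8 over Psmb5, -0.15 for Psmb9 over Psmb6 and -0.05 for Psmb10 over Psmb7. These ratios were not tested.

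Leukocytes express the immunoproteasome, and their markers moved at 24 h. Of 14 leukocyte markers measured out of 18, 10 were higher in CLA at 24 h, where 10.6% of all genes were. At 4 and 12 h 0 passed in limma, with 0 and 2 at an unadjusted p under 0.05, beside 867 and 2333 of all 12627 genes. Their summed intensity was 49466 and 43405 in CLA pools, against 27363 and 23530 in LA pools at 24 h, and 23209 to 31353 on the 8 earlier arrays. The T cell markers Cd3e and Cd3g and the B cell marker Ms4a1 were at or near background, at most 82.0, 68.4 and 106.4. Fat cell markers were lower in CLA at 24 h for 5 of 9, where 10.9% of all genes were, with sums of 274077 and 284544 in CLA pools, against 360507 and 399743 in LA pools. The part of either change in the proteasome results was not tested.

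At 12 h both marker sums differed little between diets, at 28292 and 26200 in CLA pools, against 25984 and 23209 in LA pools for leukocytes. Fat cell sums were 351764 and 330285 in CLA pools, against 339323 and 317871 in LA pools. Skeletal muscle markers summed to 5379 and 3668 in CLA pools, against 1690 and 1434 in LA pools at 12 h. Of 9 such markers, 0 passed in limma and 3 had an unadjusted p under 0.05, beside 2333 of all 12627 genes. In 8 both CLA arrays lay above both LA arrays, as in 24.2% of all genes. CLA 4 h replicate 2 had a muscle sum of 4722 and a core and cap median of 0.21, beside 0.18 and 0.07 in the LA 4 h pools. At 24 h, where the core and cap medians were 0.56 and 0.52 in CLA pools, against 0.05 and -0.01 in LA pools, the muscle sums were 1693 and 1528 in CLA pools, against 1042 and 2212 in LA pools. The part of muscle RNA at 12 h was not tested.

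**Figure D4:**
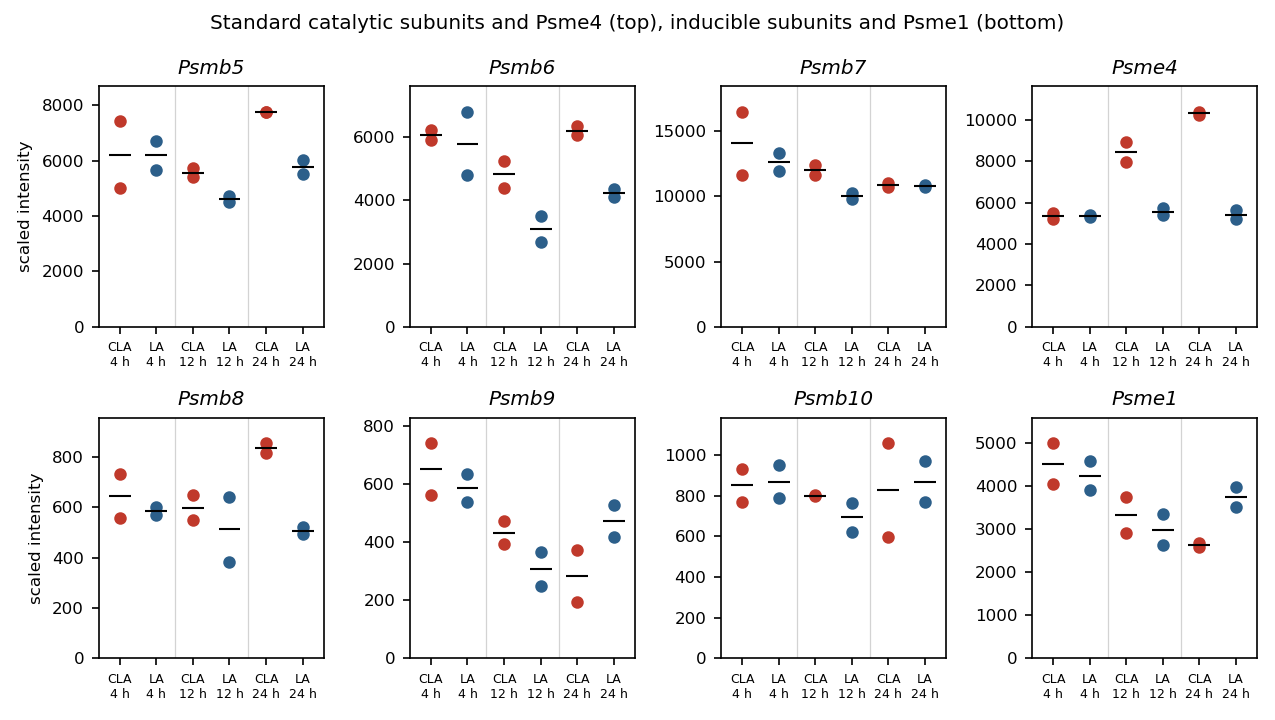
Scaled intensity (linear axis from 0) of the standard cutting subunits and Psme4 (top) and of the inducible subunits and Psme1 (bottom); points are arrays, lines group means, CLA left of LA at each time. At 24 h the CLA points are above the LA points for Psmb5, Psmb6, Psme4 and Psmb8, below them for Psmb9 and Psme1, and mixed for Psmb7 and Psmb10.

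Of the activators outside the immunoproteasome, Psme4, which encodes the activator PA200, hardly varied among LA pools. It read 5193 and 5478 in CLA pools, against 5403 and 5299 in LA pools at 4 h. At 12 h it read 7961 and 8933 in CLA pools, against 5391 and 5739 in LA pools. Its values at 24 h were 10228 and 10382 in CLA pools, against 5625 and 5183 in LA pools. The 6 LA pools stayed between 5183 and 5739, and the CLA pools left that range at 12 and 24 h. The difference passed at 12 h (log2 0.60 ± 0.13 (SE), adjusted p = 0.0449) and at 24 h, where it was 1.91-fold (log2 0.93 ± 0.13 (SE), adjusted p = 0.00271). The 12 h call was lost in 15 of 22 alternative settings and the 24 h call in 1.

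Psme3, the nuclear activator PA28 gamma, read 904 and 1101 in CLA pools, against 1200.1 and 1059 in LA pools at 4 h, with overlap (log2 -0.17). In the 12 h pools it had 1473 and 1750.5 in CLA pools, against 1319 and 1444 in LA pools, apart but short of the threshold (log2 0.22 ± 0.16 (SE), adjusted p = 0.561). In the 24 h pools it had 1998 and 1886 in CLA pools, against 1290.5 and 1372 in LA pools. The groups did not overlap (log2 0.54 ± 0.16 (SE), adjusted p = 0.049), and the call was lost in 17 of 22 alternative settings. Psmf1, the inhibitor PI31, passed in the average only, at 0.44 (adjusted p = 0.0286).

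The 7 assembly chaperones did not share a direction. At 24 h 3 were positive and 4 negative, with a median of -0.11, and 1 passed. Psmg1, which with Psmg2 helps the alpha ring to form, read 1286 and 1082 in CLA pools, against 1994 and 1854 in LA pools at 24 h. Both CLA pools were lower (log2 -0.70 ± 0.18 (SE), adjusted p = 0.0276), in the direction opposite to the alpha genes themselves. Psmd5, a chaperone of the base, read 3934 and 3813 in CLA pools, against 2669 and 2541 in LA pools at 24 h, above the LA pools but short of the threshold (log2 0.57 ± 0.21 (SE), adjusted p = 0.0937). Psmg4 had the smallest difference, with 341 and 274 in CLA pools, against 316 and 347 in LA pools and overlap (log2 -0.11 ± 0.24 (SE), adjusted p = 0.784). Psmg3, its partner in alpha ring assembly, passed in the average, at 0.47 (adjusted p = 0.0268).

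The name matches were apart from the subunits. Psmc3ip, which acts in meiotic recombination, was dim, with 115 and 129 in CLA pools, against 215 and 192 in LA pools at 24 h, where it was lower in CLA (log2 -0.67 ± 0.16 (SE), adjusted p = 0.0208). Psme3ip1 did not pass at any time in limma. Without both, the same 6 genes passed at 12 h, and at 24 h 12 of 45 were higher and 1 lower.

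The change of the diet difference between times was tested directly. From 4 to 12 h 0 of 47 passed, where 0.0238% of all genes did. An unadjusted p under 0.05 was found for 15 of the 47, beside 1244 of all 12627 genes. From 12 to 24 h 0 passed, where 2.26% of all genes did. Here 5 of the 47 had an unadjusted p under 0.05, a smaller share than the 2614 of all 12627 genes. From 4 to 24 h, a contrast added after the values were seen, 3 of 47 passed (6.38%), close to the 6.81% of all genes that did: Psmb3 at 1.32 (adjusted p = 0.0388), Psme4 at 0.93 (adjusted p = 0.0287) and Psma7 at 1.07 (adjusted p = 0.0484). This count was 0 without either LA 4 h, either LA 24 h or either CLA 24 h array, 1 without CLA 4 h replicate 1 or any 12 h array, and 12 without CLA 4 h replicate 2. Across the 47 genes, Pearson's r between the 12 h and 24 h differences, which share no arrays, was 0.55. This is close to the value over 6456 genes, where the authors' deposited 12 h ratio correlated with the 24 h difference at 0.53. The 4 genes that passed at both times were Psmc6, Psmd4, Psmd12 and Psme4.

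The authors' deposited ratio tables gave more calls in the same direction. With the p-value of the authors' deposited table adjusted in the same way, 30 of 47 proteasome genes were higher at 12 h, where 6.99% of all genes were. At 24 h, 29 were higher and 2 lower in the authors' deposited table, where 15.8% and 15.7% of all genes were. All 6 genes that passed in limma at 12 h and all 12 higher at 24 h were among those called higher. The 29 also held the name match Psme3ip1. The 2 called lower were Psme1 and Psmg1, and Psmc3ip, lower in limma at 24 h, was not called. The authors' test rests on an error model that the headers do not state.

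Where a gene had several probe sets, they pointed the same way for most genes. Of 19 genes with over 1 probe set of mean log2 at least 8, the probe sets shared a sign in 17 at 12 h, the exceptions being Psma6 and Psmg2, and in 19 at 24 h. Calls could still differ when limma tested all probe sets together. Another probe set of Psma5 passed at 12 h (log2 1.30, adjusted p = 0.0274), as for the cap genes Psmc4 and Psmd11. Another of Psmb4 passed at 24 h (log2 0.86, adjusted p = 0.0289). The probe sets used for these genes did not pass there. At 24 h the probe set used passed and another did not for Psma7, Psmb3, Psmc6, Psmd4, Psmd6, Psmd11, Psme4 and the name match Psmc3ip. For Psmb3 the other probe set stood at 0.71 (adjusted p = 0.17 in limma).

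Partners of the proteasome were counted from lists of related genes, and the shares of all genes to set these counts against are 2.08% higher at 12 h and 10.6% higher at 24 h. An unadjusted p under 0.05 in limma was found for 2333 of all 12627 genes at 12 h. Of 10 associated factors, 3 were higher at 12 h and 4 at 24 h, and none was lower. Usp14, the deubiquitinase that sits on the cap, rose at both times, with 2602 and 2370.0 in CLA pools, against 1562 and 1172 in LA pools at 24 h (log2 0.87 ± 0.17 (SE), adjusted p = 0.0104). Zfand2a, which binds the cap under stress, was higher by 1.85 at 12 h and 1.66 at 24 h. Ecpas, a proteasome adaptor, passed at 12 h at 1.49 (adjusted p = 0.0271), and Zfand5 and Txnl1 passed at 24 h (0.68 and 0.66).

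Of 15 shuttle and p97 factors, only some of which bring ubiquitinated proteins to the proteasome, 4 were higher at 12 h and 8 at 24 h. The shares of all genes were the same 2.08% and 10.6%. Sqstm1, the p62 receptor, read 21263 and 17361 in CLA pools, against 3829 and 2804 in LA pools at 12 h, without overlap (log2 2.55 ± 0.23 (SE), adjusted p = 0.00226). The p97 cofactor Nsfl1c passed at both times, by 0.87 and 0.78. Of 8 ubiquitin and ubiquitin enzyme genes measured, 0 passed at 12 h, when 1 had an unadjusted p under 0.05 in limma. At 24 h 1 of the 8 passed as lower (12.5%), close to the 10.9% of all genes that did. This was the ubiquitin ligase Stub1, at -1.07 (adjusted p = 0.0497).

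Of 13 cytosolic and mitochondrial chaperones, 8 were higher at 12 h and 11 at 24 h, where 2.08% and 10.6% of all genes were. Hspa1b, a heat-inducible Hsp70, read 26913 and 29242 in CLA pools, against 1289 and 1645 in LA pools at 12 h, far apart (log2 4.25 ± 0.31 (SE), adjusted p = 0.0014). Of the small heat shock and Hsp40 genes, Hspb1 was higher by 3.16 at 12 h and Dnajb1 by 2.74 at 24 h.

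Of 9 regulators of proteasome genes, 2 were higher at 12 h and 4 at 24 h, beside 2.08% and 10.6% of all genes. Maff, a small MAF partner of NFE2L1 and NFE2L2, read 1285 and 1143 in CLA pools, against 262 and 183 in LA pools at 12 h. In the 24 h pools it had 2179.5 and 2786 in CLA pools, against 147 and 149 in LA pools. The groups were apart at 12 h (log2 2.38 ± 0.43 (SE), adjusted p = 0.0236) and at 24 h (log2 3.92 ± 0.43 (SE), adjusted p = 0.00102). Nfe2l2, which encodes NRF2, read 2939 and 3113 in CLA pools, against 2964 and 3071 in LA pools at 12 h, with overlap. At 24 h it read 4194 and 4519 in CLA pools, against 2539 and 2160.1 in LA pools, without overlap (log2 0.89 ± 0.15 (SE), adjusted p = 0.00548). Nfe2l1, singled out after its values were seen, read 2586 and 3099 in CLA pools, against 2775 and 4346 in LA pools at 12 h. In the 24 h pools it had 3365 and 3680.1 in CLA pools, against 2631 and 3496 in LA pools. Its groups overlapped at both times (log2 -0.29 at 12 h and 0.21 at 24 h).

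Of 11 class I antigen processing genes, 0 passed at 12 h, when 2 had an unadjusted p under 0.05 in limma. At 24 h 1 of the 11 was higher (9.09%), close to the 10.6% of all genes that were. This was the chaperone gene Canx, at 0.52 (adjusted p = 0.0263). Of 10 interferon response regulators, 0 passed at 12 h, when 1 had an unadjusted p under 0.05 in limma. At 24 h 3 of the 10 were higher, where 10.6% of all genes were. Jak2, a kinase of the interferon gamma receptor, was higher by 1.31 (adjusted p = 0.0039), as were Irf9 and the receptor chain Ifngr2 (0.84 and 0.77).

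The promoters of these genes were searched for short motifs in windows running from 250 bases before to 50 after the start site, taken from RefSeq on GRCm38.p6. A window was found for 40 of the 47 genes. The antioxidant response element, to which NFE2L1 and NFE2L2 bind, was searched as TGACNNNGC on both strands and was present in 6 of the 40 (15.0%), beside 14.0% of all 27025 genes. The interferon-stimulated element GAAANNGAA was present in 7 (17.5%), beside 9.76%, and the gamma-activated site TTCNNNGAA, which reads alike on both strands, in 3 (7.5%), beside 9.55%. Such a match is a description of the letters and not a bound site.

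The 6 antioxidant matches, a share close to that of all genes, are all shown. They include Psmc6, Psmd12 and Psme4, which passed at both 12 and 24 h, and the cutting subunits Psmb5 and Psmb6. Psmd4, which also passed at both times, held no antioxidant match. They lie in Psmc6 at chr14:45329577-45329625 (plus strand), Psmd12 at chr11:107479278-107479309 (plus strand), Psme4 at chr11:30771748-30771776 (plus strand), Psmb5 at chr14:54618014-54618062 (minus strand), Psmb6 at chr11:70525328-70525356 (plus strand) and Psmd9 at chr5:123228139-123228187 (plus strand). Capitals mark the match, and each run reads 5′ to 3′ on the strand of its gene; a match on the other strand appears as GCNNNGTCA.
Psmc6: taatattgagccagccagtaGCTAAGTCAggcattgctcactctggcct
Psmd12: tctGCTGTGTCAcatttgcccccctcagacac
Psme4: aacctcccggcgctgcggctGCAGCGTCA
Psmb5: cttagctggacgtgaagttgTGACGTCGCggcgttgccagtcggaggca
Psmb6: cagaggcggactaaagagagTGACGGAGC
Psmd9: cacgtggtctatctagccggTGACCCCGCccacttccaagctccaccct

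The matches begin 227 and 247 bases before the start site in Psmc6 and Psmd12, and 7, 47, 9 and 31 bases before it in Psme4, Psmb5, Psmb6 and Psmd9. The genes that hold one differed in size and sign. The 24 h difference was 0.96 in Psmc6, 0.93 in Psme4 and 0.64 in Psmd12, beside 0.55 in Psmb6, 0.43 in Psmb5 and -0.26 in the assembly chaperone Psmd9.

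For the inducible genes, Psmb8 held a gamma-activated match at chr17:34198078-34198126 (plus strand), beginning 97 bases before the start site, and Psme1 held an interferon-stimulated match beginning at base 11 of its transcript, which is not printed. Psmb9 and Psmb10 held neither motif. The interferon-stimulated matches of Psmb3 at chr11:97703252-97703300 (plus strand) and Psmd4 at chr3:95042665-95042713 (minus strand) are shown beside that of Psmb8. They were picked because both genes are of the standard core and cap and passed at 24 h. Psmb4, Psmc2, Psmd9 and Psmg4 also held an interferon-stimulated match, not printed, and did not pass at 24 h (log2 0.58, 0.51, -0.26 and -0.11). Capitals again mark the match, which appears as TTCNNTTTC on the other strand.
Psmb8: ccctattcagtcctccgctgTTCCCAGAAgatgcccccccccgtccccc
Psmb3: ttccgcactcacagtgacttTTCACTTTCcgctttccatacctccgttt
Psmd4: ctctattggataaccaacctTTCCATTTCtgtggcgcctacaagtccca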

How the data were processed

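White adipose RNA was measured on 12 Affymetrix arrays, 2 pools per diet and time. The authors deposited 1 linear intensity per probe set and array, 45101 in all, with no common scale. The method that summarised the probes is not given in the sources used here. Per the file headers, the authors also deposited, for each time, a ratio of group intensities with its fold change, a log10 ratio and a p-value per probe set, from Rosetta Resolver. Which diet is the numerator is not in the headers. Across 6456 genes the deposited ratio correlated with CLA minus LA at r of 0.874, 0.967 and 0.978 for 4, 12 and 24 h, and it was read as CLA over LA.

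The 64 control probe sets were left out. Each array was scaled to a mean of 500 after trimming 2% at each end, values below 0 were set to 0, 16 was added and log2 of the deposited intensity so scaled was taken. Probe sets reaching 100 on at least 2 arrays were kept (26016), and the brightest probe set on average stood for a gene. Symbols came from the platform annotation, where 34945 probe sets name 1 gene, 932 several and 9211 have none or are not listed. All 6 groups entered 1 fit with lmFit and eBayes of limma 3.58.1 under R 4.3.3, which had 6 residual and 2.16 prior degrees of freedom. Two-sided p-values were adjusted over 12627 genes by the Benjamini-Hochberg method. The fit was tested on simulated data.

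The genes named with values on the arrays are the cutting subunits, the activators and, per class, the 2 with the largest and the 1 with the smallest 24 h difference. Partner genes named are up to 4 per list and time among those that passed. The members and lists were chosen with earlier results of these data known. Same-numbered replicates of different groups did not deviate together (correlations from -0.09 to 0.10), so the numbers were not used as pairs. The p-values weigh a difference against the spread between pools, not between single mice. Nothing says how the mice were housed or split into pools, so diet and housing or pooling cannot be told apart. The number of arrays limits the precision. Alternatives changed the scaling, the offset, the filter, the probe set used, the groups in the fit and the arrays left out. Python 3.11.15 with pandas 2.3.3 and matplotlib 3.10.9 drew the plots.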

Additional observations from a re-analysis of the deposited data

Results flagged for a closer look

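The diet difference at 24 h exceeded that at 4 h for 3 proteasome genes, by a test of the difference itself in limma that was added after the values were seen. This is 6.38% of the 47, close to the 6.81% of all genes that passed the same test, so the count says nothing particular about proteasome genes. The log2 diet difference of Psmb3 was 1.02 at 24 h and -0.29 at 4 h, a change of 1.32 (adjusted p = 0.0388). For Psma7 it was 0.94 and -0.13 at those times, a change of 1.07 (adjusted p = 0.0484). For Psme4 it was 0.93 and 0.00, a change of 0.93 (adjusted p = 0.0287). The number of genes was 0 without either LA 4 h, either LA 24 h or either CLA 24 h array, 1 without CLA 4 h replicate 1 and 12 without CLA 4 h replicate 2. In all 3 genes CLA 4 h replicate 1, the array with low 18S, had the lowest value of the 6 CLA pools.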

How the results depend on the processing

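The number of proteasome genes past the threshold was 6 at 12 h, 14 at 24 h, 17 in the average and 3 for 24 h against 4 h. Without scaling it was 0 at 12 h, 9 at 24 h, 2 in the average and 0 for 24 h against 4 h; the median of all genes then stood at -0.15 at 12 h and 0.23 at 24 h, with 1270 genes higher and 507 lower at 24 h beside 1335 and 1381 with scaling. Against those shifted medians, the proteasome genes had medians of 0.43 at 12 h and 0.65 at 24 h. With only the groups compared in the fit, fewer arrays set the spread, and the counts were 0 at 12 h, 3 at 24 h and 0 for 24 h against 4 h. With all probe sets tested together the counts were 2 at 12 h and 0 for 24 h against 4 h. The authors' deposited table gave 30 at 12 h and 31 at 24 h. For 24 h against 4 h, quantile normalization gave 6, no filter on dim probe sets 1 and averaging the probe sets of each gene 0; the cause was not tested. Leaving out 1 array at a time gave 0 to 13 at 12 h, 1 to 19 at 24 h, 7 to 22 in the average and 0 to 12 for 24 h against 4 h. With the replicate block, a paired fit on the replicate numbers, the counts were 6 at 12 h, 15 at 24 h, 22 in the average and 2 for 24 h against 4 h. At 4 h, for 12 h against 4 h, for 24 h against 12 h and for the LA contrasts the count was 0 under every alternative run. The average has no fit with only the groups compared, and the authors' tables hold the diet at each time alone. No named gene that passed turned direction.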
